A study of Mus musculus with 3 samples.

Results

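Foxp3 binding at the C-type lectin genes of the mouse was examined in bone marrow-derived macrophages (BMDMs), macrophages grown from marrow progenitors in medium conditioned with M-CSF. The genes were taken from the mm10 RefSeq annotation as every protein-coding gene on chromosomes 1 to 19 and X whose symbol is Clec followed by a number and, optionally, a letter and a further number. This gave 33 of 21627 protein-coding genes. Clec2j has such a symbol but is annotated as a pseudogene and was left out. The data were 2 CUT&RUN libraries made with the Foxp3 antibody FJK-16s (replicates 1 and 2) on cells fixed in 0.1% formaldehyde for 2 min. The labels name no genotype, strain or age of the mice, and give every library the same fixation and growth medium. In CUT&RUN an antibody tethers a nuclease to its target, and the DNA fragments it frees are sequenced. The series title speaks of molecules released from damaged brain as a stimulus, and no label says which library received it. One further library, made with an isotype IgG, was not analysed here, so no value below is set against background from a control antibody.

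C-type lectins share a fold that in many members binds sugars in the presence of calcium. On myeloid cells they act as receptors for fungal and mycobacterial glycans and for material from dying cells, and the activating ones signal through the kinase Syk and the adaptor Card9, either directly or through the partner chains Fcer1g and Tyrobp. Others carry an inhibitory motif, serve as ligands for receptors of natural killer cells, or are secreted. Some genes with a Clec symbol, such as Clec16a, act inside the cell.

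Replicate 1 held 33294105 fragments and 556535 peaks, and replicate 2 held 34898401 fragments and 95135 peaks, as called by the authors on each library separately. Median fold enrichment, which is the summit pileup plus 1 over a background term of the same library, was 4.92 in replicate 1 and 3.99 in replicate 2. The weakest listed peaks had 10 fragments over the summit in replicate 1 and 13 in replicate 2, so weaker sites could not be seen. The lists differ in length, and the counts below are therefore given for each replicate as well as for both. The labels leave unsaid if the replicates are from different cultures or mice, so their spread may be technical. Peaks do not measure expression, so the identity of the cells could not be checked from marker levels. Of 8 macrophage marker genes, 6 had a peak of both replicates within 1 kb of a gene end, against 62.2% of all genes, and Adgre1 and Itgam did not. This count does not identify the cells.

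Peaks at the ends of C-type lectin genes were found in both replicates for 7 of 33 genes (21.2%), against 62.2% of all protein-coding genes. The 7 genes were Clec2l, Clec4a3, Clec3a, Clec3b, Clec10a, Clec14a and Clec16a. A gene was counted when each replicate had a peak overlapping the 1 kb on either side of either annotated end. In replicate 1 alone 19 of the 33 genes (57.6%) had such a peak, against 86.1% of all genes. In replicate 2 alone the same 7 genes had one (21.2%), against 63.3% of all genes. Of the remaining genes, 12 had an end peak in replicate 1 only and 14 had none. In 6 of the 7 genes (18.2% of the 33) the peaks of the replicates overlapped at the end by at least 1 bp, against 57.9% of all genes, and Clec10a was the exception. The Clec shares were thus the lower ones in each replicate alone. No test was made of these differences, since genes are not replicates.

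**Figure D1:**
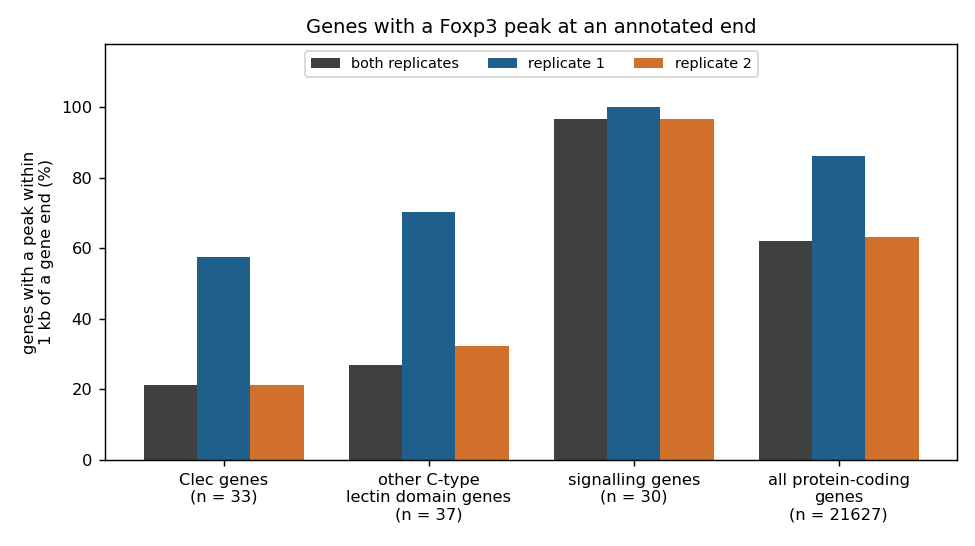
Share of genes (%) with a Foxp3 peak within 1 kb of an annotated gene end, for the 33 Clec genes, 37 other genes with a C-type lectin domain, 30 signalling genes downstream of these receptors, and all 21627 protein-coding genes; bars give both replicates, replicate 1 and replicate 2. The Clec genes stand at 21.2%, 57.6% and 21.2%, and all protein-coding genes at 62.2%, 86.1% and 63.3%.

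Over the whole gene with 5 kb on either side, 19 of 33 Clec genes (57.6%) had peaks in both replicates, against 82.7% of all genes. In replicate 1 the share was 32 of 33 (97.0%), near the 96.6% of all genes. In replicate 2 it was 19 of 33 (57.6%), against 83.0% of all genes. Overlapping peaks of the replicates lay in this window for 13 Clec genes (39.4%), against 75.9% of all genes. The Clec genes were somewhat shorter, with a median length of 13.2 kb against 17.3 kb for all genes. A Clec gene held a median of 5 peaks in replicate 1 and 1 in replicate 2, against medians of 9 and 2 for all genes.

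The promoters show how these genes differ in sequence. RefSeq promoters of the GRCm38.p6 build, running from 250 bases before to 50 after the transcription start, were matched to 26 of the 33 genes by gene ID. Of these, 3 were overlapped by peaks of both replicates, namely Clec2l, Clec4a3 and Clec16a (11.5%), against 43.3% of 17273 genes with a promoter. They are printed below with the promoters of 3 myeloid receptors that had no peak of either replicate there, Clec7a, Clec4e and Clec5a. All run 5′ to 3′ on the strand of the gene. Capitals mark 4 words searched on both strands, TGTTTNC for forkhead factors, GAGGAA for PU.1, TGANTCA for AP-1 and TTGCNNAA for C/EBP. On the plus strand lie Clec2l (chr6:38662819-38663118), Clec4a3 (chr6:122952265-122952564) and Clec16a (chr16:10545089-10545388). On the minus strand lie Clec7a (chr6:129472736-129473035), Clec4e (chr6:123289822-123290121) and Clec5a (chr6:40585756-40586055).
Clec2l: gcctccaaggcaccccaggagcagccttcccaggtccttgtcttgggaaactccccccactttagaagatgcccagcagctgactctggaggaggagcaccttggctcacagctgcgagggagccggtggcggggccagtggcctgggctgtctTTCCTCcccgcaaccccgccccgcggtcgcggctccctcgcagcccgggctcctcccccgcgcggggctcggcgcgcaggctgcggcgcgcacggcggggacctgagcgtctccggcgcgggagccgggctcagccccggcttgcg
Clec4a3: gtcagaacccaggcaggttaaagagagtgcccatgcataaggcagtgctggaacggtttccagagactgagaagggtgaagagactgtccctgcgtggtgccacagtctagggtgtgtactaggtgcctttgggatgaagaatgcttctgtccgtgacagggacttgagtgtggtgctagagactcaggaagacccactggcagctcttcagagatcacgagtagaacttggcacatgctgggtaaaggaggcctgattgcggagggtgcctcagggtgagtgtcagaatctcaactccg
Clec16a: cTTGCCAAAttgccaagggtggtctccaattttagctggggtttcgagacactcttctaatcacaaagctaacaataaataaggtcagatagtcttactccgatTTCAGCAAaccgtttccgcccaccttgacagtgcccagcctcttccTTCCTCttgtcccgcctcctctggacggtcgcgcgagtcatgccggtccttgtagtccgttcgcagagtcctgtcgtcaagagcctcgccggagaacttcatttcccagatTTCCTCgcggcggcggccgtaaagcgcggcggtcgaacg
Clec7a: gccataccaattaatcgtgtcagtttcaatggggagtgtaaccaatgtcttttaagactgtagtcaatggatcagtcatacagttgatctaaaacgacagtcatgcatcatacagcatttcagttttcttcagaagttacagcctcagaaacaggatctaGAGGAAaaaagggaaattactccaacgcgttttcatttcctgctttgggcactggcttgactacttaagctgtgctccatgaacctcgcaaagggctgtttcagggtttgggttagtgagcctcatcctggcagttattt
Clec4e: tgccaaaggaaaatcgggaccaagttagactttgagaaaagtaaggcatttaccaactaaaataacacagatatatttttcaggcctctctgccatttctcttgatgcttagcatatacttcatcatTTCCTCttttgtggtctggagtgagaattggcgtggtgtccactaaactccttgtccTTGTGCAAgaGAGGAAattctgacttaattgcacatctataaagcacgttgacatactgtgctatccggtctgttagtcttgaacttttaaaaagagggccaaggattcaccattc
Clec5a: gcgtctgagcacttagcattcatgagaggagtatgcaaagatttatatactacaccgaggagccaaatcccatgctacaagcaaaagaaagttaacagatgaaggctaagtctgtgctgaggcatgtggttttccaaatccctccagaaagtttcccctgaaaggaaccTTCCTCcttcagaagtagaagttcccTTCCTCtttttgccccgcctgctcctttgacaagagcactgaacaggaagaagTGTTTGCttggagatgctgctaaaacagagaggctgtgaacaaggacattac

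Among these, Clec5a alone carried the forkhead word, TGTTTGC, beginning 2 bases before its start. The Clec5a promoter also held the PU.1 word 2 times, the Clec4e promoter 2 times and the Clec7a promoter 1 time. In Clec4e the C/EBP word, TTGTGCAA on the reverse strand, begins 66 bases before the start, and a PU.1 word begins 56 bases before it. The Clec2l promoter held 1 PU.1 word, and the Clec16a promoter held 2 PU.1 and 2 C/EBP words. The Clec4a3 promoter, with peaks of both replicates, held none of the 4 words. A match is a description of the letters and not a binding site.

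Across all 26 promoters the forkhead word was present in 6 (23.1%), against 18.6% of all promoters. These were Clec4a1, Clec4d, Clec5a, Clec12b, Clec2d and Clec4g, and none of the 6 was overlapped by a peak of either replicate. Of the 20 Clec promoters without the word, 3 (15.0%) were overlapped by peaks of both replicates. Of all promoters, 26.1% of those with the word and 47.3% of those without it were overlapped by both. The PU.1 word was present in 14 of 26 Clec promoters (53.8%), against 27.2% of all promoters. The AP-1 word was present in 6 (23.1%), against 7.09%, and the C/EBP word in 5 (19.2%), against 10.3%. The median share of G and C bases was 43.0% in Clec promoters and 56.3% in all promoters. The part of base composition in the word shares was not tested. PU.1 is a master factor of the macrophage lineage, and C/EBP factors act with it in myeloid cells.

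The promoters of the family were poor in CpG dinucleotides. The median was 4 CpG in 300 bases for the 26 Clec promoters, against 14 for all promoters. Clec2l had 29 and Clec16a had 25, and the other 24 Clec promoters, Clec4a3 with 6 among them, had at most 7. Across all genes, promoters overlapped by peaks of both replicates had a median of 25 CpG and the other promoters 5. The part of CpG content in the peak calls was not tested.

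**Figure D2:**
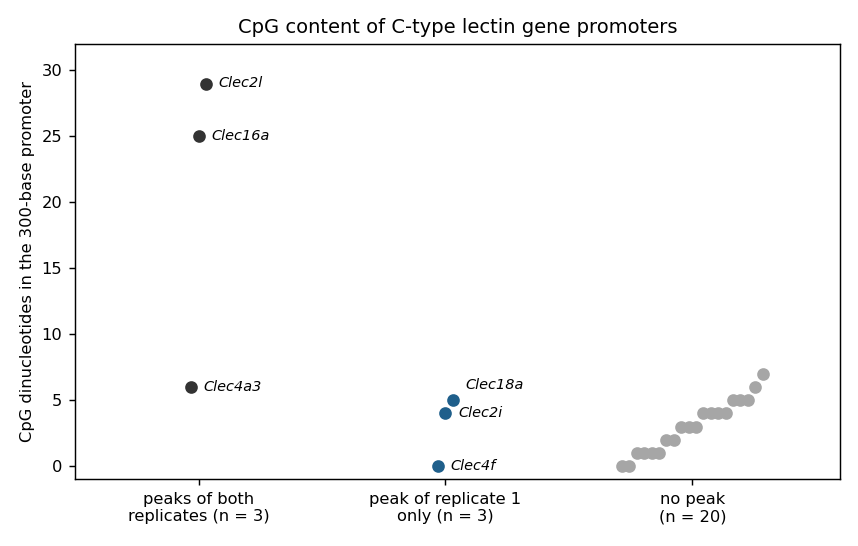
CpG dinucleotides in the 300-base promoter (y axis) of the 26 Clec genes with a RefSeq promoter, grouped by whether peaks of both replicates, a peak of replicate 1 only or no peak overlapped the promoter; each point is 1 gene. Clec2l and Clec16a stand at 29 and 25, and every other promoter has 7 or fewer.

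The Dectin-1 group on chromosome 6 had few peaks in replicate 1 and a single one in replicate 2. It comprises Clec7a (Dectin-1, a receptor for fungal beta-glucan), Clec9a (a dendritic cell receptor for actin exposed by dead cells), Clec12a (an inhibitory receptor for uric acid crystals), Clec12b, Clec1a and Clec1b (a platelet receptor for podoplanin). None of the 6 genes had an end peak in both replicates, against 62.2% of all genes, and Clec12b alone had one in replicate 1. With 5 kb beyond, 5 of the 6 genes (83.3%) had a peak in replicate 1, against 96.6% of all genes. Over the genes with 5 kb beyond there were 12 peaks in replicate 1 and 1 in replicate 2, or 9.04 and 0.753 per 100 kb, against 26.3 and 4.83 for all protein-coding genes. The fold enrichments in replicate 1 did not exceed 6.88.

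Clec7a (gene ID 56644, chromosome 6, positions 129461591 to 129472785) held a single peak in replicate 1, 1754 bp inside the gene from its start, with a fold enrichment of 5.29 and 19 fragments over the summit, and none in replicate 2. Clec9a had 2 peaks in replicate 1, of 3.70 and 4.76-fold, and Clec12a had 3, of 3.70 to 3.97-fold. Neither had a peak in replicate 2. Clec1b had none in either replicate. The only replicate 2 peak of the group lay in Clec12b, 517 bp downstream of the start in its RefSeq promoter, at 3.53-fold and with 17 fragments, and no replicate 1 peak overlapped it. That start lies inside the annotated span of Clec12b, which also contains Clec1b and Clec9a, so peaks there cannot be assigned to 1 gene. It is not an annotated end, so the peak near it did not count as an end peak. Were it counted as an end, Clec12b would have end peaks in both replicates, at different ends. Both peaks of Clec9a are counted for Clec12b and for Clec1a as well, so Clec9a had no replicate 1 peak counted for it alone.

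The Dectin-2 group, 9 genes side by side on chromosome 6, had 1 gene with an end peak in both replicates (11.1%, against 62.2% of all genes), Clec4a3, a member of the Dcir branch. In replicate 1, 5 of 9 had an end peak (55.6%, against 86.1%), and over the gene with 5 kb beyond 6 of 9 had peaks in both replicates (66.7%, against 82.7%). The density was 14.0 peaks per 100 kb in replicate 1 and 3.03 in replicate 2, against 26.3 and 4.83 for all genes. The Clec4a3 peaks (gene ID 73149) straddled its start. Replicate 1 had chr6:122952385-122952746 at 13.8-fold with 51 fragments, and replicate 2 had chr6:122952401-122952613 at 3.73-fold with 18 fragments. The summits lay 55 bp before and 30 bp after the start. By fold enrichment this peak stood at percentile 97.1 of the replicate 1 list and 40.6 of the replicate 2 list.

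The receptors of this group that sense microbial lipids, mannans and dead cells were without overlapping peaks. Clec4e, known as Mincle, a receptor for mycobacterial cord factor and for a nuclear protein shed by dead cells, had 3 peaks in replicate 1, of 4.23 to 5.29-fold. The only one within 1 kb of an end lay 560 bp beyond the 3′ end of the gene, and the nearest peak before its start was 1672 bp away. Clec4d, the partner of Mincle, had 2 peaks in replicate 1 (7.67 and 5.29-fold) and 2 in replicate 2 (3.53 and 4.12-fold), none overlapping. The 5.29-fold peak of replicate 1 and the 4.12-fold peak of replicate 2 lie between Clec4d and Clec4e and count for both genes. Clec4n, which encodes Dectin-2, a receptor for fungal mannan, had 4 peaks in replicate 1, of 3.70 to 5.29-fold, and none in replicate 2. Its weakest peak lay 15 bp inside the gene with 13 fragments.

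The 4 Clec4a genes, of the Dcir branch, held all 5 overlapping pairs of the group. Inside Clec4a4, both replicates had a peak with summits 10016 and 10130 bp from the lower end. It spanned chr6:122999987-123000546 in replicate 1 (12.2-fold, 45 fragments) and chr6:122999916-123000620 in replicate 2 (6.68-fold, 33 fragments). Clec4a1 had a pair 5039 and 4933 bp before its start, at 14.8 and 4.73-fold in replicates 1 and 2, and a second pair beyond its other end, at 12.7 and 5.50-fold. Clec4a2, an inhibitory receptor of myeloid cells, had a weaker pair inside the gene, at 4.76 and 3.34-fold. Clec4b1 and Clec4b2 had 5 and 7 peaks in replicate 1 and none in replicate 2. The Clec4a and Clec4b genes belong to a multigene family. Whether their copies share reads was not tested, and the values of single genes are uncertain in that respect.

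**Figure D3:**
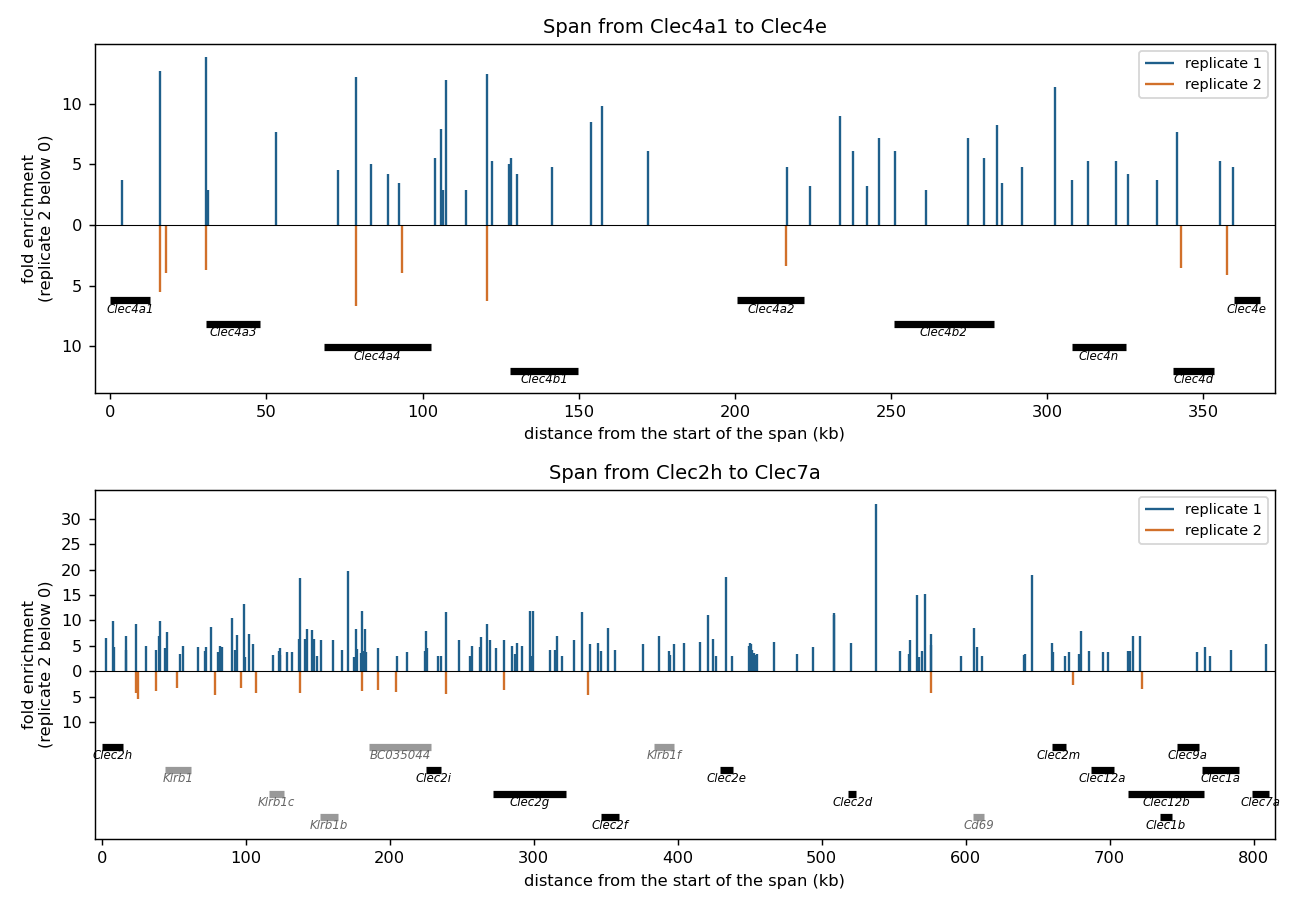
Peaks of replicate 1 (up) and replicate 2 (down) across the spans from Clec4a1 to Clec4e and from Clec2h to Clec7a on chromosome 6, by distance from the start of the span (kb, x axis) and fold enrichment (y axis); black bars are Clec genes and grey bars are other protein-coding genes. Replicate 2 has 9 peaks in the upper span and 17 in the lower, and over the Dectin-1 group, at the right end of the lower span, it has 1.

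The 2 clusters of chromosome 6 were also measured as whole spans, genes and intervals together. From Clec4a1 to Clec4e (positions 122921848 to 123289871) there were 46 and 9 peaks, or 1.25 per 10 kb in replicate 1 and 0.245 in replicate 2. From Clec2h to Clec7a (128662385 to 129472785) there were 149 and 17 peaks, or 1.84 and 0.210 per 10 kb. Chromosome 6 as a whole, between the first and last peak of replicate 1, had 2.06 and 0.341, so that the span from Clec2h to Clec7a was near the chromosome in replicate 1 and below it in replicate 2. The lower span holds 19 protein-coding genes, 13 of them Clec genes and the rest Cd69, BC035044 and the Klrb1 genes of natural killer cells. None of the 19 had an end peak in both replicates, against 58.0% of chromosome 6 genes, and 8 had one in replicate 1, against 79.8%.

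In the Clec2 group, several of whose products are ligands for Klrb1 receptors of natural killer cells, 1 of 8 genes had an end peak in both replicates (12.5%, against 62.2% of all genes), and 5 of 8 had one in replicate 1 (62.5%, against 86.1%). The density in replicate 1, 26.1 peaks per 100 kb, was near the 26.3 of all genes, and that in replicate 2 was 2.37, against 4.83. Clec2l alone held 15 of the 55 replicate 1 peaks. Of the members within the cluster, only Clec2i exceeded the 2.63 replicate 1 peaks per 10 kb of all genes, at 2.92. The others there had 0.628 to 2.49. The gene with end peaks in both was Clec2l, a member known from brain, which lies apart from the others on chromosome 6 (gene ID 665180, positions 38663069 to 38680865). Its peak spanned chr6:38662771-38663396 in replicate 1 (10.1-fold, 76 fragments) and chr6:38662716-38663410 in replicate 2 (4.76-fold, 34 fragments), with summits 24 bp apart. In each replicate it covered the whole promoter printed above. A second pair lay inside the gene at 6.78 and 3.98-fold. Among the members within the cluster, Clec2i had 3 peaks of replicate 1 at its start, the strongest 7.93-fold, and a pair 3010 and 3107 bp beyond its other end at 11.6 and 4.52-fold. Clec2g had a pair inside the gene at 6.08 and 3.73-fold. Clec2d, the ligand of the inhibitory receptor Klrb1b, had a single peak in replicate 1 (5.55-fold), and Clec2e had an internal peak of replicate 1 of 18.5-fold with 69 fragments that replicate 2 lacked.

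Receptors outside these clusters gave few repeated sites. Clec5a, an activating myeloid receptor that signals through Tyrobp, had 5 peaks in replicate 1, of 3.70 to 5.55-fold, none within 1 kb of an end, and none in replicate 2. Clec10a, a galactose receptor of macrophages known as Mgl1 (gene ID 17312, chromosome 11, positions 70166623 to 70170836), had end peaks in both replicates that did not overlap. Those of replicate 1 had fold enrichments of 3.76, 4.94 and 5.70. The replicate 2 peak lay 865 bp beyond the higher end, at 3.08-fold and with 17 fragments, at percentile 8.93 of that list. Clec4f, a receptor of liver macrophages, had 12 peaks in replicate 1, one of them 8.54-fold and 108 bp before its start, and none in replicate 2. Clec4g, of liver sinusoidal endothelium, had 10 and 1, and its strongest, 19.1-fold with 83 fragments in replicate 1, was the highest of all Clec peaks and had no counterpart in replicate 2.

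The 6 secreted and other members, none of them on chromosome 6, are a mixed group. End peaks of both replicates were found at 4 of the 6 (66.7%), near the 62.2% of all genes. All 6 had overlapping peaks of the replicates over the gene with 5 kb beyond, against 75.9% of all genes, with the pair at Clec18a shared with a neighbour. The highest replicate 2 value of the family was at Clec3a, a protein of cartilage (gene ID 403395, chromosome 8, positions 114418034 to 114428133). There the summits lay 100 and 12 bp before the lower end, at 5.69-fold in replicate 1 and 7.85-fold in replicate 2, with 21 and 39 fragments. The peak stood at percentile 62.5 of the replicate 1 list and 98.1 of the replicate 2 list. Clec3b, which encodes the plasma protein tetranectin, had a pair 551 and 308 bp inside its higher end, at 9.07 and 6.09-fold. Clec14a, an endothelial protein, had a pair 522 and 950 bp inside the gene from its start, at 14.5 and 4.91-fold. The growth factor gene Clec11a had a pair inside the gene at 11.7 and 4.02-fold, of which the replicate 2 peak did not reach an end window. The pair nearest Clec18a, at 15.4 and 5.66-fold, lay beyond its annotated higher end and within 1 kb of the end of Pdpr, so it could not be assigned to Clec18a.

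Clec16a, a regulator of autophagy and of the removal of mitochondria, is by far the longest member (gene ID 74374, chromosome 16, positions 10545309 to 10744878). It held 107 of the 281 replicate 1 peaks of the family and 11 of the 36 of replicate 2. At its start, replicate 2 had 1 peak, chr16:10545156-10545789 (5.41-fold, 41 fragments). In replicate 1 this stretch held 2 peaks, of 9.09 and 3.79-fold with 59 and 24 fragments. A pair at 8.50 and 4.84-fold before the gene lay within 1 kb of an end of the neighbouring gene Dexi, and a further pair near the other end of Clec16a was at 6.39 and 4.55-fold. Of the 11 replicate 2 peaks, 8 lay inside the gene away from its ends with no overlapping replicate 1 peak, the strongest at 6.37-fold with 32 fragments.

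**Figure D4:**
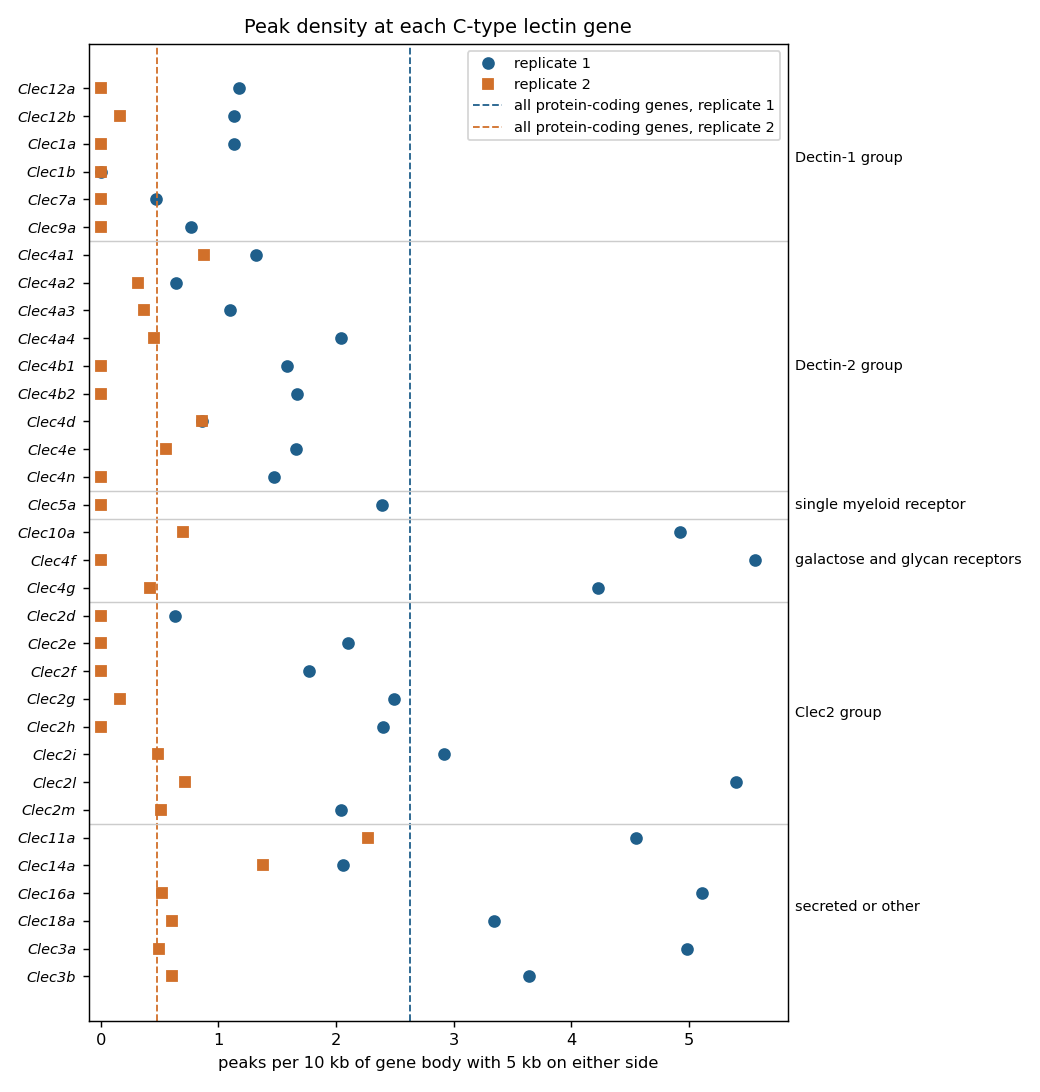
Peaks per 10 kb of gene body with 5 kb on either side (x axis) at each of the 33 Clec genes (y axis, by group), for replicate 1 (circles) and replicate 2 (squares); dashed lines give the pooled value of all protein-coding genes, 2.63 in replicate 1 and 0.483 in replicate 2. All genes of the Dectin-1 and Dectin-2 groups lie below the replicate 1 line, and the secreted and other members except Clec14a lie above it. In replicate 2, Clec4a1, Clec4d and Clec4e of the Dectin-2 group lie above the line, as do all secreted and other members. For Clec1b and Clec4d the square covers the circle.

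Together the family had 28.3 peaks per 100 kb in replicate 1 and 3.62 in replicate 2, against 26.3 and 4.83 for all protein-coding genes with the same flanks. The replicate 1 value leans on Clec16a, which held 107 of the 281 peaks. It was not computed without Clec16a, so it does not show that the other members lay above all genes. The split by chromosome was made after these values were seen. The 25 genes on chromosome 6 had 18.6 and 2.15 peaks per 100 kb, against 24.2 and 4.26 for all genes of that chromosome. In replicate 1, 22 of the 25 lay below the density of all protein-coding genes, and Clec2l, Clec4f and Clec2i lay above it. The 8 genes on other chromosomes had 46.4 and 6.38, or 39.2 and 8.14 without Clec16a. End peaks of both replicates were found at 2 of the 25 (8%), against 58.0% of all chromosome 6 genes, and at 5 of the 8 on other chromosomes (62.5%), near the 62.2% of all genes. Pooled over the family, the peaks were near those over all genes in median strength. The median fold enrichment over Clec genes was 4.92 in replicate 1 and 4.07 in replicate 2, against 4.94 and 4.08 over all protein-coding genes. By group, the replicate 1 median was 3.97 in the Dectin-1 group (12 peaks), 5.29 in the Dectin-2 group and 5.03 in the Clec2 group. Of the replicate 2 peaks of the family, 20 of 36 (55.6%) overlapped a replicate 1 peak, against 58.8% over all protein-coding genes.

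The 21 overlapping pairs at Clec genes comprised 7 at gene ends and 14 elsewhere. In 19 pairs the fold enrichment was higher in replicate 1, and in 2 (Clec3a and one of Clec16a) it was higher in replicate 2. The fold values have a different background term and list median in each library, so the folds of the replicates are not on one scale and this order is a description only.

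**Figure D5:**
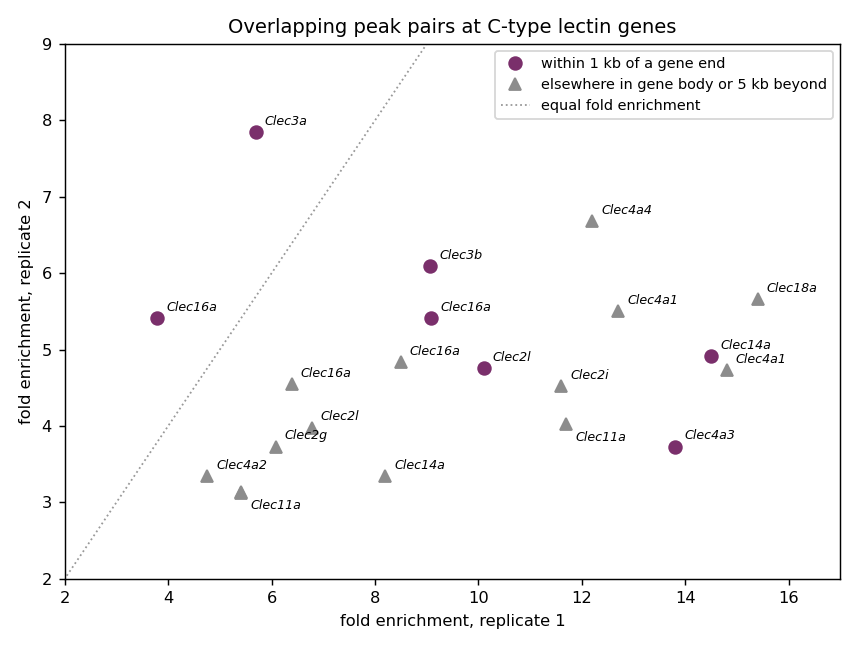
Fold enrichment of the 21 overlapping peak pairs at Clec genes in replicate 1 (x axis) and replicate 2 (y axis), with pairs at gene ends as circles and other pairs as triangles. The Clec3a pair, at 5.69 and 7.85, and 1 pair of Clec16a, at 3.79 and 5.41, lie above the line of equal values, and 2 pairs of Clec11a nearly coincide.

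Other genes with a C-type lectin domain were counted in the same way, and 10 of 37 (27.0%) carried an end peak in both replicates, against 62.2% of all genes. By mean percentile of fold enrichment within the list, the highest were Cd302, which encodes a phagocytic receptor (30.5 and 5.50-fold in replicates 1 and 2), Colec12, a scavenger receptor (12.2 and 6.38-fold), and the collagen receptor gene Mrc2 and Chodl, which tied in rank (14.8 and 5.18-fold, and 17.8 and 5.10-fold). The mannose receptor gene Mrc1, chosen after its values were seen, had no end peak in either replicate.

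The genes that carry the signal inward had end peaks in both replicates in 29 of 30 cases (96.7%), again against 62.2% of all genes. In 26 of the 30 (86.7%) the peaks of the replicates overlapped at an end, against 57.9% of all genes. The 3 highest were Malt1 (15.7 and 8.68-fold) of the Card9 complex, the ubiquitin ligase gene Cblb, which restrains the receptors (14.1 and 7.42-fold), and the kinase gene Mapk8 (16.6 and 5.89-fold). Syk had 12.7 and 5.50-fold with 47 and 27 fragments, and Card9 had 6.28 and 4.60-fold. The Card9 peaks also lay at the end of Dnlz and could not be assigned to 1 gene. The end windows of the neighbours Tyrobp and Hcst, both in the list, overlap. Their strongest replicate 2 values were the same, 3.82-fold with 26 fragments, so 1 peak may count for both genes. At neither gene did the strongest end peaks of the replicates overlap. Ptpn6, the phosphatase of the inhibitory receptors, had 2 end peaks in replicate 1, the stronger at 5.12-fold, and none in replicate 2. At the annotated ends of the Dectin-1 group, by comparison, 0 of 6 genes had peaks of both replicates.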

How the data were processed

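Peak lists of 2 Foxp3 CUT&RUN libraries were used. Per the file headers, the authors called peaks per library using MACS 2.1.1.20160309 (q-value cutoff 0.01), with paired ends, no control library and all duplicate fragments kept. The submitters' processing notes name CASAVA 1.4 and mm10; aligner and version are not given in the sources used here. Pileup, as deposited, is an unscaled signal that counts fragments at the summit. As deposited, fold enrichment is a ratio of pileup plus 1 to a background term of the same library. The deposited −log10 q-value was used for the stricter lists. Positions are 1-based.

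Genes came from a RefSeq table of GRCm38.p6, whose coordinates on these chromosomes are those of mm10. That table gives no strand, so both gene ends were used, and strand was taken from the RefSeq promoters where they list a gene. Counts were made with Python 3.11.15, numpy 2.4.6 and pandas 2.3.3, and the counting was tested on simulated data. With 1 group of 2 libraries and no control values, no test between groups was possible, and none was made over genes. The members and lists were chosen with earlier results of these data known. Named in full were all Clec genes with end peaks in both replicates and 9 set ones, and of each related list the 3 with the highest mean percentile of fold enrichment, together with Syk, Card9 and Fcer1g, of which the Fcer1g result is not reported here. Alternatives were windows of 5000 bp, summits, transcription starts, overlap by 1 bp or by 50% of both lengths, stricter peaks, equal numbers of peaks and each replicate alone.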

Additional observations from a re-analysis of the deposited data

How the results depend on the processing

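The share of Clec genes with end peaks in both replicates lay below that of all protein-coding genes under every alternative tried. The 7 genes became 15 of 33 with windows of 5000 bp (45.5%, against 78.9% of all genes), 4 of 26 at transcription starts alone (15.4%, against 61.1%) and 4 of 33 with an overlap of 50% of both lengths (12.1%, against 43.7%). Leaving out 1 replicate gave 7 to 19 genes at ends and 19 to 32 over the gene with 5 kb beyond. In that wider window the share with replicate 1 alone (97.0%) did not lie below that of all genes (96.6%). Nearly every gene held a replicate 1 peak there, so this share could hardly show a lower count in replicate 1. At gene ends the share with replicate 1 alone was lower (57.6%, against 86.1%). With peaks of −log10 q of at least 5, 5 genes were left at ends (15.2%, against 57.5% of all genes). The replicate 2 peaks of Clec4a3 and Clec10a had 4.74 and 3.35. The equal-number lists also left 5, against 49.3% of all genes by fold enrichment and 54.0% by q-value. The count of 13 genes with overlapping pairs stayed between 10 and 13 (30.3% to 39.4%), against 61.9% to 75.9% of all genes. The other lectin domain genes had 19 of 37 with windows of 5000 bp (51.4%, against 78.9% of all genes). At transcription starts they had 4 of 26 (15.4%, against 61.1%). They had 12 without replicate 1 (32.4%, against 63.3%) and 26 without replicate 2 (70.3%, against 86.1%). The signalling genes had 17 of 22 at transcription starts (77.3%, against 61.1% of all genes), and in the other alternatives at least 21 of 30. That lowest count came with the equal-number list by fold enrichment (70.0%, against 49.3%). The causes of these differences were not tested. No paired analysis was possible because there is 1 group of peak lists. No peaks of the IgG library were used, weak sites under 10 and 13 fragments cannot be listed, and no repeat or multi-mapping screen was made.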
